A study of Mus musculus with 4 samples.

Results

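Aff1, Aff2, Aff3 and Aff4 make up the AF4/FMR2 (AFF) family of nuclear proteins, and their transcripts were followed here in activated mouse B cells labelled Aff3+/- or Aff3-/-. The family was read from every probe whose accession belongs to one of the 4 genes, which gave 6 of the 39429 gene probes on the array, or 4 of its 20141 named genes. Aff1 had 2 probes, Aff3 had 2, and Aff2 and Aff4 had 1 each. For Aff1 (NM_133919), Aff2 (NM_008032) and Aff4 (NM_033565) the accession was found in a RefSeq gene table. The accession of both Aff3 probes, NM_010678, is not in that table. It was taken as an Aff3 mRNA because the probes were designated as such for this work, so the naming of Aff3 rests on that designation.

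B cells lacking surface CD43, which leaves mainly resting B-2 cells, were taken from spleens of Aff3+/- or Aff3-/- mice and cultured for 3 days with LPS at 10 ug/mL and IL-4 at 10 ng/mL before total RNA was extracted. LPS activates B cells through TLR4, and together with IL-4 it drives switching to IgG1 and IgE. Each of 4 Cy3-labelled RNA samples was hybridised to its own 1-colour Agilent array, so that each genotype had 2 arrays, and the 4 arrays shared 1 slide. The control group is heterozygous and carries 1 disrupted Aff3 copy itself, and no wild-type array was analysed here. The strain, age and number of the mice, and which part of Aff3 the mutant allele removes, are not given in the sources used here. The labels do not say whether the replicates came from separate mice or cultures, so a p-value here reflects no more than how far these samples lie apart, which may be technical.

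AFF proteins are long and largely unstructured, and Aff1 (AF4) and Aff4 are scaffolds of the super elongation complex. This complex brings the kinase P-TEFb and the ELL elongation factors to RNA polymerase II. It helps the polymerase leave its paused state near the start of a gene. Aff1 and Aff4 are broadly expressed, and human AFF1 is a frequent fusion partner of MLL in acute leukaemia. Aff2 (FMR2) is best known in brain, where silencing of the human gene causes an X-linked intellectual disability. Aff3 (LAF4) was first described as a lymphoid nuclear protein related to AF4.

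Of the 39429 probes, 24946 to 25868 were well above background on an array, no gene spot was saturated, and 25115 probes were tested. All 7 B cell markers reported here (Ms4a1, Cd79a, Cd79b, Cd22, Pax5, Ebf1 and Blnk) and 3 genes of LPS and IL-4 activation (Fcer2a, Cd86 and Il4i1) were well above background on all 4 arrays. The T cell receptor chain Cd3g, the NK cell genes Ncr1 and Klrb1c, the macrophage lysozyme Lyz2, the neutrophil genes S100a8 and S100a9, the erythroid gene Alas2 and the collagen Col1a1 were well above background on none. Markers of other types were not wholly absent: 4 of 5 measured T cell markers, Nkg7, 4 of 5 myeloid markers, Hba-a1 and 3 of 4 stromal and endothelial markers were well above background on all 4 arrays.

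Aff3 itself was examined first, since it is the targeted gene. On the brighter probe, A_51_P486121, the processed signal was 4123 and 2875 intensity units on the Aff3+/- arrays of replicates 1 and 2, and 4183 and 2376 on the arrays labelled Aff3-/-. Both replicate 1 arrays were bright and both replicate 2 arrays dimmer, whichever the genotype, and the genotypes overlapped. After each array was scaled to its 75th percentile, the probe stood at 1.39 ± 0.43 (SD, n = 2) in Aff3+/- and 1.28 ± 0.55 in Aff3-/- cells on the log2 scale. The difference was -0.12 ± 0.34 (log2, SE; limma adjusted p = 1.00), so that Aff3-/- signal was 92.2% of Aff3+/- signal with a 95% interval of 49.3% to 173%.

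The dimmer Aff3 probe, A_51_P388329, gave 221 and 254 intensity units on the Aff3+/- arrays of replicates 1 and 2, and 250 and 230 on the arrays labelled Aff3-/-. No array stood apart on this probe, and its 4 values spanned 0.13 on the log2 scale once scaled. The genotype difference was +0.03 ± 0.12 (log2, SE; limma adjusted p = 1.00). Aff3-/- signal was 102% of Aff3+/- signal, with a 95% interval of 82.1% to 127%, so the lower bound of this probe lay well above the 49.3% of the brighter probe.

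Signal from NM_010678 was therefore well above background on all 4 arrays, and neither probe was lower in Aff3-/- cells beyond the spread between arrays. A probe outside the deleted part of the gene does not check the genotype. Since neither the deleted part nor the probes' positions in the transcript are known here, these signals do not check the labels, from which alone every direction given here is taken.

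**Figure D1:**
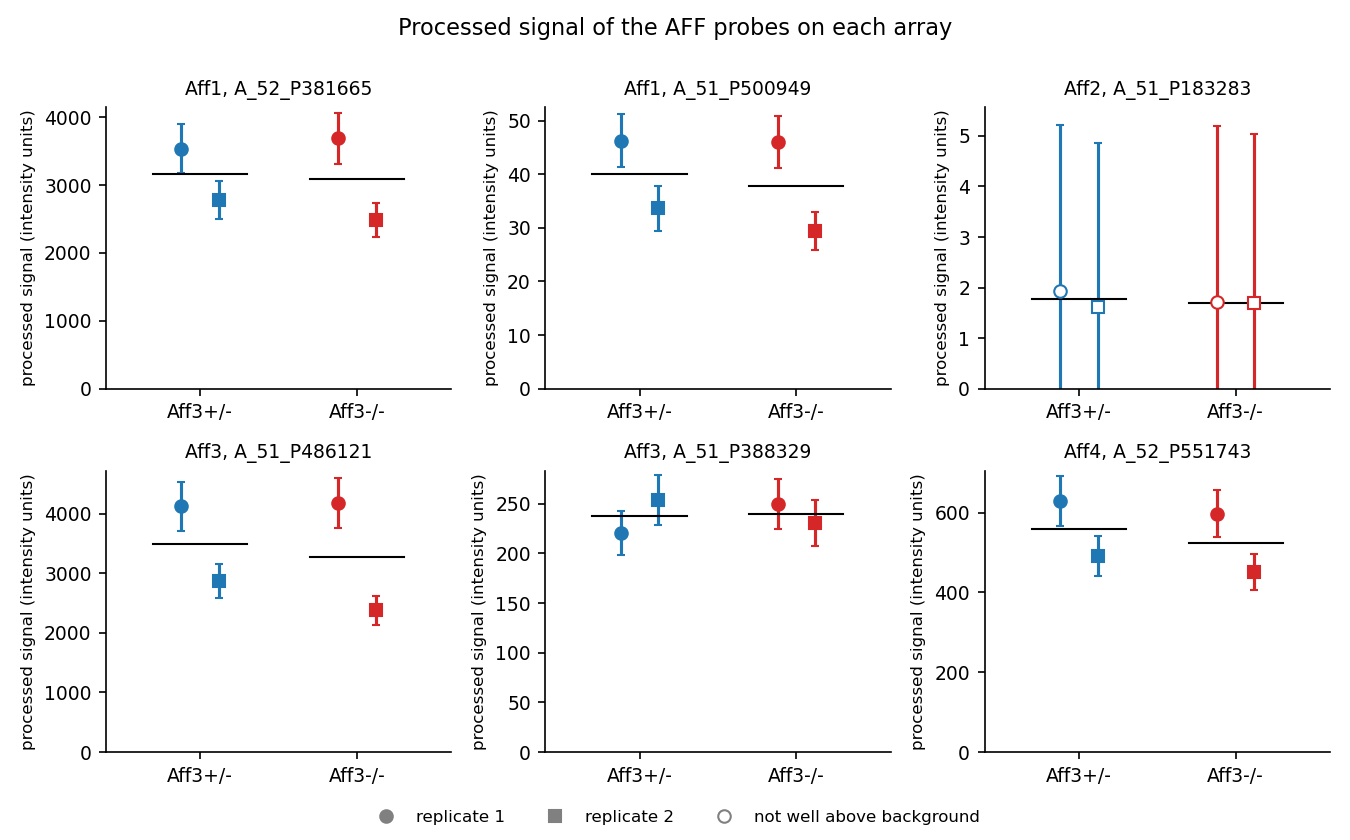
Processed signal (intensity units, linear axes from 0, not scaled between arrays) of each of the 6 AFF probes on the 4 arrays, with circles for replicate 1 and squares for replicate 2, open symbols for signal not well above background, error bars for the scanner software's error of the spot (those of Aff2 reach below 0 and are not drawn there), and a black line for the mean of each genotype. Replicate 1 lies above replicate 2 in both genotypes for both Aff1 probes, the brighter Aff3 probe and Aff4, while the dimmer Aff3 probe does not separate by replicate. Aff2 is not well above background on any array, and its error bars span the gaps between arrays.

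Aff1 and Aff4, the family's broadly expressed scaffolds, were both present. The brighter Aff1 probe, A_52_P381665, gave 3538 and 2780 intensity units in Aff3+/- replicates 1 and 2, and 3685 and 2485 in Aff3-/- replicates 1 and 2. The second Aff1 probe, A_51_P500949, was far dimmer, at 46.3 and 33.6 units in Aff3+/- and 46.1 and 29.4 units in Aff3-/- cells. Both probes repeated the order seen for Aff3 on its brighter probe, with replicate 1 above replicate 2 in each genotype. The difference between Aff3-/- and Aff3+/- was -0.04 ± 0.25 (log2, SE) for the brighter and -0.09 ± 0.29 for the dimmer probe (limma adjusted p = 1.00 for each). The 95% intervals ran from -0.70 to 0.62 and from -0.86 to 0.68. With normexp background correction, whose offset of 50 units exceeds its signal, the dimmer Aff1 probe turned to +0.03.

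For Aff4, the single probe A_52_P551743 gave 628 and 491 intensity units in Aff3+/- replicates 1 and 2, and 597 and 451 in Aff3-/- replicates 1 and 2. Each Aff3-/- array was slightly below the Aff3+/- array of the same number, but the genotypes overlapped because the replicate 1 arrays were brighter. On the log2 scale Aff4 stood at -1.24 ± 0.31 (SD, n = 2) in Aff3+/- and -1.33 ± 0.26 in Aff3-/- cells, a difference of -0.09 ± 0.22 (SE; limma adjusted p = 1.00; 95% interval -0.66 to 0.49).

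Aff2 was well above background on none of the arrays. Its probe, A_51_P183283, gave 1.94 and 1.62 intensity units in Aff3+/- replicates 1 and 2, and 1.71 and 1.69 in Aff3-/- replicates 1 and 2, where the dimmest signal called well above background was 5.96 to 6.95 units depending on the array. The scanner software's error of these spots was 169% to 203% of their signal, so that no fold between the genotypes can be given, and the probe was not tested. No array stood apart.

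Read over the family, 0 of the 5 tested AFF probes passed the adjusted threshold of 0.05 with limma, beside 0% of all 25115 probes tested (lowest adjusted p = 0.85). Before adjustment, 0 of the 5 had a p under 0.05 with limma, the smallest being 0.71 for Aff4, against 1.95% of all probes. The genotypes overlapped for all 6 probes, while 19.6% of all tested probes showed no overlap. Of the 5 tested probes 4 were lower in Aff3-/- cells and 1 was higher, with a median of -0.09, whereas 54.9% of all tested probes were lower and their median was -0.01. The absolute difference of the brighter Aff3 probe was exceeded by 31.3% of all tested probes and that of the brighter Aff1 probe by 68.0%, so that the AFF differences were of ordinary size on these arrays. With 2 arrays against 2, an exact permutation test of a single probe could reach no two-sided p below 0.33.

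**Figure D2:**
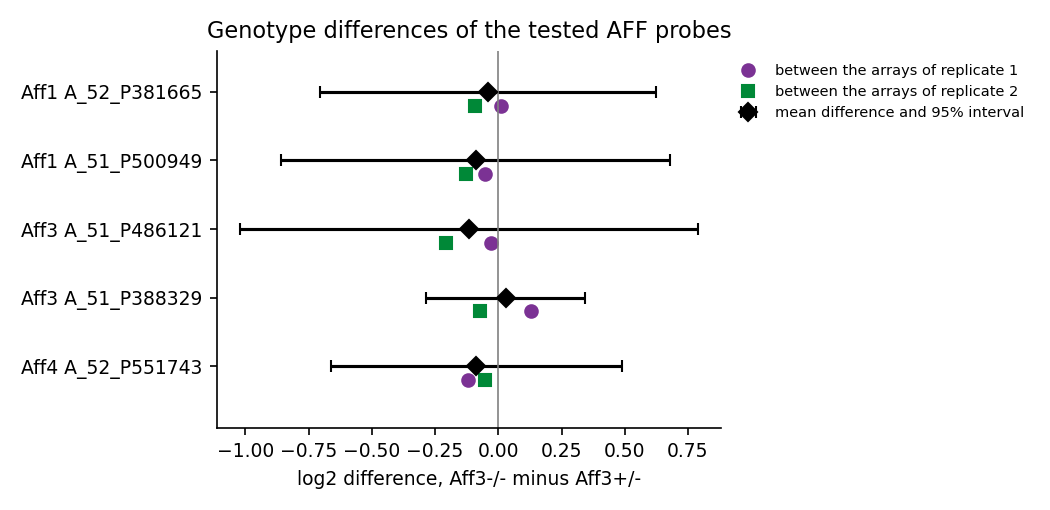
Log2 difference between Aff3-/- and Aff3+/- arrays for the 5 tested AFF probes. Black diamonds and bars are the limma difference with its 95% interval, and the purple circles and green squares are the differences between the 2 arrays of replicate 1 and the 2 arrays of replicate 2. Every interval includes 0, and the differences within a replicate number, from -0.21 to 0.13, lie far inside the intervals.

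On all tested AFF probes but the dimmer Aff3 probe, the replicates of a genotype lay farther apart than the genotypes did. Between arrays of the same number the genotypes were close, and the brighter Aff3 probe differed by -0.03 between the replicate 1 arrays and by -0.21 between the replicate 2 arrays (log2). The brighter Aff1 probe differed by +0.01 and -0.09, the dimmer one by -0.05 and -0.13, and Aff4 by -0.12 and -0.05. The dimmer Aff3 probe changed sign, with +0.13 and -0.07. The scanner software's own error of a tested AFF spot was 10.0% to 12.5% of its signal, and Aff3-/- signal was 86.7% to 109.5% of Aff3+/- signal over these 10 ratios between arrays. The brighter Aff3 probe, for example, stood in Aff3-/- at 98.1% of Aff3+/- for replicate 1 and at 86.7% for replicate 2.

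Leaving out 1 array moved all 5 differences across 0 at least once. The size of each move is fixed by the gap between the 2 replicates of the genotype that loses an array. These values therefore restate that gap and are no separate check of the genotype difference. For the brighter Aff3 probe the difference became +0.19 without Aff3+/- replicate 1 and +0.28 without Aff3-/- replicate 2, but -0.51 without Aff3-/- replicate 1 and -0.42 without Aff3+/- replicate 2. Without Aff3+/- replicate 1 it was +0.18 for both Aff1 probes and +0.13 for Aff4. Without Aff3-/- replicate 2 it was +0.23 for the brighter and +0.22 for the dimmer Aff1 probe and +0.10 for Aff4. The dimmer Aff3 probe, which showed no order by number, stayed between -0.03 and +0.09, falling to -0.03 when Aff3+/- replicate 1 was left out and to -0.01 when Aff3-/- replicate 1 was.

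On 4 of the 5 tested AFF probes the signal varied more between the replicate numbers than between the genotypes. On the brighter Aff3 probe replicate 1 was brighter than replicate 2 by 0.61 in Aff3+/- and by 0.78 in Aff3-/- cells (log2), or 1.52-fold and 1.72-fold. For the brighter Aff1 probe these differences were 0.43 and 0.54, for the dimmer Aff1 probe 0.55 and 0.62, and for Aff4 0.44 and 0.37. Both replicate 1 arrays lay above both replicate 2 arrays for 4 of the 5 tested AFF probes and below them for 0, where the same was true of 33.5% and 30.9% of all tested probes (64.4% in either direction). The mean shift of the brighter Aff3 probe was exceeded by 1.99% of all tested probes, that of the dimmer and brighter Aff1 probes by 3.30% and 5.32%, and that of Aff4 by 7.71%. The median shift over all tested probes was 0.01, which the scaling of each array largely fixes, and the median absolute shift was 0.16. These values are a description, since a replicate number is a label and not a condition of the study.

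The shift kept its direction for the brighter Aff3 and Aff1 probes and for Aff4 under quantile normalization, in the deposited log2 values and with normexp background correction. For the dimmer Aff1 probe it turned with normexp, to -0.20 in Aff3+/- and -0.33 in Aff3-/- cells. The normexp offset of 50 units exceeds this probe's processed signal of 29.4 to 46.3 units, so that setting says little about it. The dimmer Aff3 probe did not share the shift: it was -0.12 in Aff3+/- and +0.08 in Aff3-/- cells. The 2 Aff3 probes therefore disagreed on how Aff3 varied across the arrays, although they carry the same accession. Once centred on its own mean, each probe's 4 values can be set against those of another by their root mean square (RMS) distance. That distance was 0.36 between the 2 Aff3 probes and 0.05 between the 2 Aff1 probes. The brighter Aff3 probe lay closer to the dimmer Aff1 probe (0.06), the brighter Aff1 probe (0.11) and Aff4 (0.16) than to the other Aff3 probe.

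**Figure D3:**
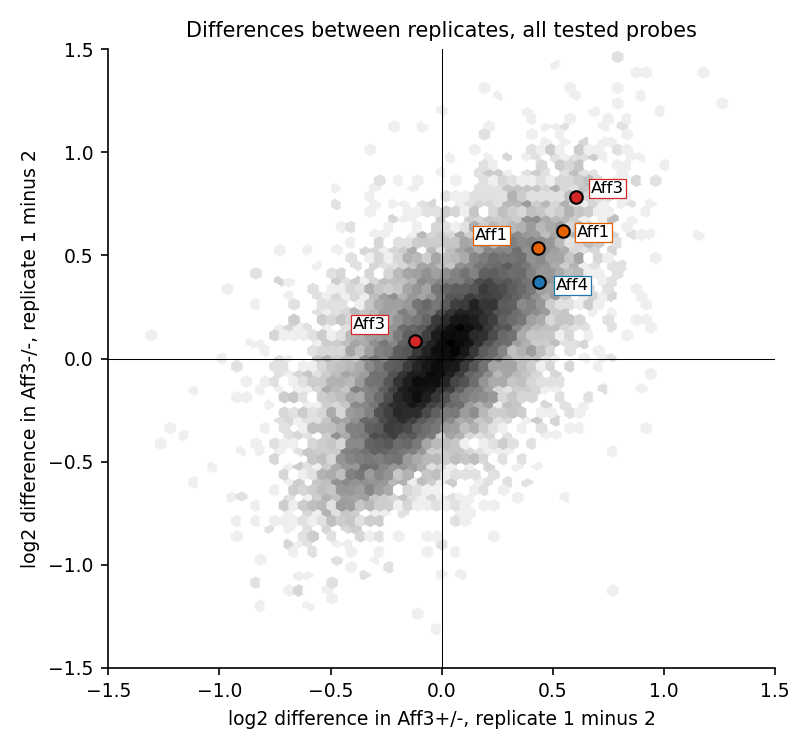
Log2 difference between replicate 1 and replicate 2 in Aff3+/- cells (horizontal) and in Aff3-/- cells (vertical) for the tested probes, with darker grey for more probes on a log scale and the 5 tested AFF probes as coloured points. The 161 probes beyond 1.5 on either axis are not shown. Both Aff1 probes, Aff4 and the brighter Aff3 probe lie at the upper right, brighter in replicate 1 in both genotypes, and the dimmer Aff3 probe lies near the centre.

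Markers of cell types were then set beside this shift. The 7 B cell markers reported here were each brighter on both replicate 1 arrays than on either replicate 2 array, with a median shift of 0.28 (log2), where 33.5% of all tested probes were brighter on both replicate 1 arrays. Their summed signal, in multiples of each array's 75th percentile, was 296 and 296 on the replicate 1 arrays (Aff3+/- and Aff3-/-) and 258 and 239 on the replicate 2 arrays. The 4 plasma cell markers had a median shift of -0.33. Of these, 2 (Sdc1 and, by a small margin, Prdm1) were lower on both replicate 1 arrays, where 30.9% of all tested probes were. The others overlapped between the numbers. The summed signal of the 4 plasma cell markers was 10.0 and 14.0 for replicate 1 against 13.1 and 14.4 for replicate 2. Most of this sum is Jchain, by far the brightest of the 4, which overlapped between the numbers. Syndecan Sdc1, a surface marker of plasma cells, was lower in replicate 1 by 0.56 in Aff3+/- and by 1.01 in Aff3-/- cells (log2), and Prdm1, Jchain and Tnfrsf17 had mean shifts of -0.13, -0.22 and -0.45, the last of these lower in Aff3+/- (-0.96) and slightly higher in Aff3-/- cells (+0.07). Of the LPS and IL-4 activation genes 2 of 3 were brighter on both replicate 1 arrays. Their summed signal was 151 and 186 for replicate 1 and 156 and 166 for replicate 2. Most of it is Il4i1, the gene that overlapped between the numbers. Of 4 tested myeloid markers 3 were brighter on both replicate 1 arrays, with a median shift of 0.31. Their summed signal was 8.65 and 7.89 for replicate 1, and 7.47 and 7.19 for replicate 2. The same order held for 2 of 4 T cell markers (median 0.13) and 1 of 3 stromal and endothelial markers (median 0.29). With so few genes, none of the activation, myeloid, T cell or stromal and endothelial counts can be set apart from the 33.5% of all tested probes. Nor can the plasma cell count be set apart from the 30.9% that were lower on both replicate 1 arrays. Between the genotypes, all 7 B cell markers were lower in Aff3-/- cells (median -0.14, log2), where 54.9% of all tested probes were lower. All 4 plasma cell markers (median +0.19) and all 3 activation genes (median +0.18) were higher. None of these markers passed the adjusted threshold with limma. The part of these cell markers in the AFF shift or in the AFF genotype differences was not tested. In RNA from a whole culture, fewer cells of a type and less RNA per cell cannot be told apart.

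The genes whose pattern over the 4 arrays was nearest to that of an AFF gene were found by the same RMS distance, among all tested probes with a gene symbol and for the brighter probe of each gene. Nearest to Aff3 were Syne2, a nuclear envelope protein that anchors the nucleus to the cytoskeleton (0.012), Bmpr2, a type II receptor for bone morphogenetic proteins (0.016), and the meiosis gene M1ap (0.022). Nearest to Aff1 were Ap3s2, a subunit of the AP-3 sorting complex (0.0070), Pnkd (0.010) and the histone deacetylase Hdac7 (0.011). Nearest to Aff4 were Rtp4, an interferon-induced chaperone of receptors (0.0064), the BMP antagonist Nog (0.011) and the phosphatase Cdc14a (0.012). The median distance of all tested probes was 0.36 from Aff3, 0.26 from Aff1 and 0.23 from Aff4. Because they were picked for their likeness on these arrays, the 9 genes have the replicate order of the AFF probes by construction, with mean shifts of 0.40 to 0.72 (log2). These distances rest on 4 arrays and were given no test.

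Genes of the super elongation complex and of complexes linked to it were compared between the genotypes from a list of 27 genes. Besides 10 core genes of that complex, it held P-TEFb regulators, other partners of Mllt1 and Mllt3, MLL and its cofactors, and the PAF1 complex. All are called partners here, although only the 10 core genes stand for the complex that Aff1 and Aff4 scaffold. The name does not mean that each is a partner of Aff3. Of these, 26 were tested and all 26 were well above background on all 4 arrays, while Kmt2a was not matched to a probe. None of the 26 passed the adjusted threshold with limma (0 genes, and 0 at an unadjusted p under 0.05). Of the 26, 18 were higher and 8 lower in Aff3-/- cells, and their median was +0.04, beside -0.01 for all tested probes. Both Aff3-/- arrays were above both Aff3+/- arrays for 5 of them and below for 2, where 8.26% and 11.4% of all tested probes did so.

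Within the core of the super elongation complex, Eaf2, a partner that stimulates the ELL factors, had the largest difference. Its brighter probe stood at 4.83 and 4.70 (log2 relative to the 75th percentile) in Aff3+/- replicates 1 and 2 and at 5.26 and 4.92 in Aff3-/- replicates 1 and 2. Both Aff3-/- arrays were higher, by 0.32 ± 0.16 on average (SE; limma adjusted p = 1.00), whereas its other probe differed by +0.11. Its relative Eaf1 differed by +0.04 ± 0.12. The elongation factors Ell (+0.02 ± 0.11), Ell2 (+0.05 ± 0.12), which activated B cells use on the way to plasma cells, and Ell3 (-0.01 ± 0.13) differed by less than their errors, although Ell3 changed sign with quantile normalization and with normexp.

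The YEATS readers that bind AFF scaffolds also stayed close to 0. Mllt1 (ENL) lay at 0.85 and 0.91 in Aff3+/- replicates 1 and 2 and at 0.94 and 1.06 in Aff3-/- replicates 1 and 2, a difference of +0.12 ± 0.12 (log2, SE) with the Aff3-/- arrays slightly higher. Mllt3 (AF9) lay at -1.97 and -2.37 in Aff3+/- and at -1.98 and -2.38 in Aff3-/- cells, so that the genotypes were all but equal at each number (-0.01 ± 0.22, and +0.01 with quantile normalization). Mllt3 shared the replicate order of the AFF scaffolds, with replicate 1 higher by 0.40 in each genotype.

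For P-TEFb, the kinase Cdk9 differed by -0.05 ± 0.11 (log2, SE) on its brightest probe and by 0.00 and +0.03 on its other probes. Its cyclins Ccnt1 and Ccnt2 differed by -0.01 ± 0.18 and +0.01 ± 0.13. The replicate order of Ccnt1 was opposite to that of the AFF scaffolds, with replicate 1 lower by 0.24 in Aff3+/- and by 0.34 in Aff3-/- cells. Around P-TEFb, the inhibitor Hexim1 and the 7SK RNA-binding and capping proteins Larp7 and Mepce had a median of +0.08 over the 3 genes. The 6 PAF1 complex genes, 5 higher and 1 lower, had a median of +0.05.

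The partners did not share a single order by replicate number. Of the 26 tested partners, 4 were brighter on both replicate 1 arrays (Ell, Ell3, Mllt3 and Bcor) and 13 dimmer, where 33.5% and 30.9% of all tested probes were, and all 6 PAF1 complex genes (Paf1, Cdc73, Ctr9, Leo1, Rtf1 and Wdr61) were among the 13. The median shift of the partners was -0.06. Bcor, a Polycomb corepressor that binds Mllt3 and was singled out after its values were seen, had a shift of 0.66 in Aff3+/- and 0.64 in Aff3-/- cells, close to those of the brighter Aff3 probe.

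**Figure D4:**
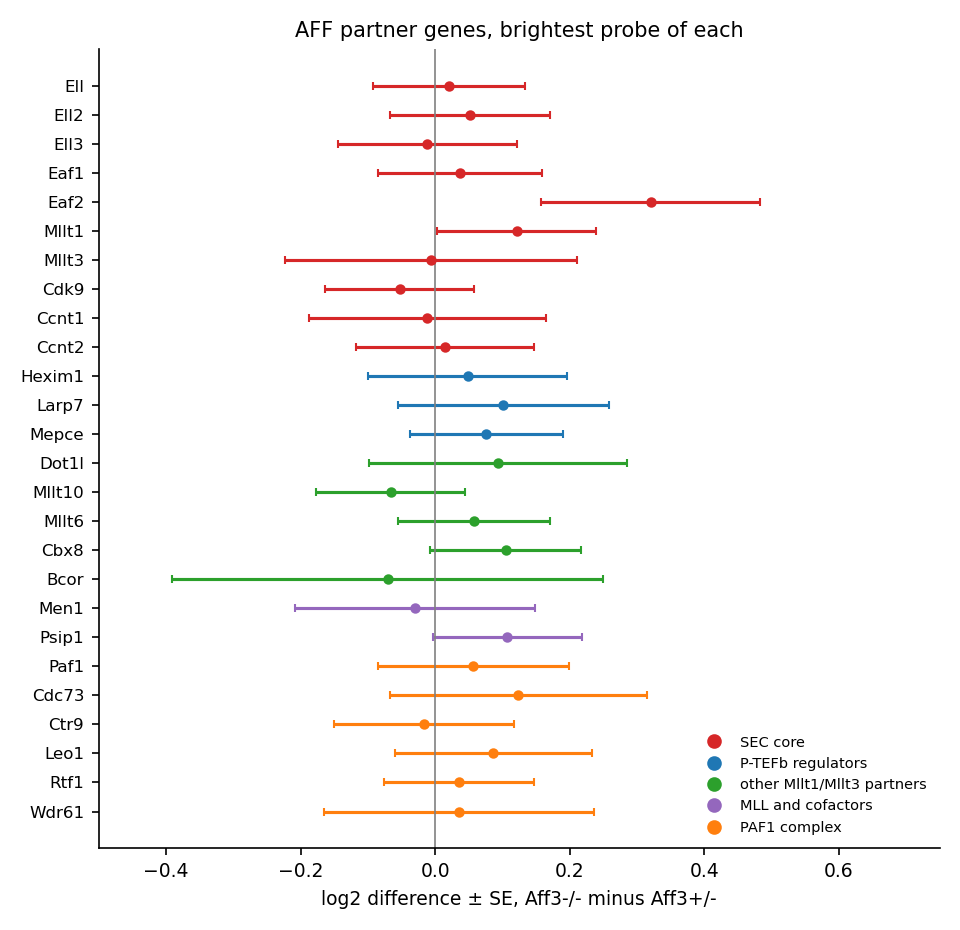
Log2 difference between Aff3-/- and Aff3+/- cells with its standard error (limma, 2 arrays per genotype) for the brightest tested probe of each of the 26 partner genes, coloured by complex (SEC, super elongation complex). Eaf2 is farthest from 0 at 0.32, and the other genes lie between -0.07 and 0.12.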

How the data were processed

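The authors read each array with Agilent Feature Extraction 10.7.1.1, per the submitters' processing notes and the file headers, and the deposited files hold intensity values that are background-subtracted but not normalized between arrays. The authors' deposited value table holds log2 values centred per probe for 25372 probes (5 of the 6 AFF probes). The AFF probe missing from it is the dimmer Aff3 probe, A_51_P388329. How the deposited values were scaled between arrays stays unknown.

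Control spots (1377 of 44397) and spots flagged as outliers were dropped. Processed signals were divided by each array's 75th percentile (1274 to 1351 intensity units) and put on the log2 scale. Spots of a probe were averaged. A probe was kept if 1 genotype or both had it well above background on each of their arrays (25115 probes). Names came from a RefSeq table of GRCm38.p6 by transcript accession (26577 probes named). The array design cites mm9, so no coordinates are given, and probe sequences were not analysed here.

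Every probe was fitted on its own in limma (version 3.58.1, under R 4.3.3) by lmFit and then eBayes with no trend, two-sided, with Benjamini-Hochberg adjustment over all 25115 probes. Differences are Aff3-/- minus Aff3+/-. A partner gene was represented by its brightest tested probe. The fit was tested on simulated data. The rule for naming genes admitted the AFF genes, the 10 core partners, further partners past the threshold or the 2 of smallest p, and the 3 nearest patterns per AFF gene. Bcor, Hexim1, Larp7, Mepce and the 6 PAF1 complex genes were named outside that rule. The members and lists were chosen with earlier results of these data known, and some genes of these lists are not reported here. Alternatives covered background correction, scaling, the filter, the deposited values, the variance model, 1 probe per gene, the replicate block and leaving out each array. Precision is limited by having 4 arrays.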

Additional observations from a re-analysis of the deposited data

How the results depend on the processing

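No AFF probe, partner gene or other probe tested passed the adjusted threshold of 0.05 under any of the 12 alternatives run (0 in each). The deposited values did not cover the dimmer Aff3 probe, and only 16 of the 26 partner genes were tested with them. The brighter Eaf2 probe and the Mllt1 probe were among those left out. In the reported limma fit an unadjusted p under 0.05 was reached by 489 of 25115 probes. Scaling and background alternatives turned the sign of the dimmer Aff1 probe (+0.031 with normexp), of Ell3 (+0.0063 with normexp, +0.0041 with quantile normalization) and of Mllt3 (+0.0094 with quantile normalization). Leaving out 1 array gave -0.51 to +0.28 for the brighter and -0.029 to +0.089 for the dimmer Aff3 probe, -0.31 to +0.23 and -0.40 to +0.22 for the brighter and dimmer Aff1 probe, and -0.31 to +0.13 for Aff4. For the partners it gave -0.022 to +0.062 (Ell), -0.015 to +0.12 (Ell2), -0.11 to +0.088 (Ell3), -0.035 to +0.11 (Eaf1), -0.21 to +0.19 (Mllt3), -0.18 to +0.16 (Ccnt1) and -0.10 to +0.13 (Ccnt2), while Eaf2, Mllt1 and Cdk9 kept their sign. The sign changes on leaving out 1 array follow arithmetically from the gap between the replicates of the genotype that loses it. The cause of those under scaling and background alternatives was not tested. Normexp used the median signal, since the planned mean signal is not a column of the files used here, and was chosen after seeing the data.

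Samples of the same replicate number deviated together (correlation 0.56 across tested probes), but no label says that the number marks a shared mouse, litter or day, and there are only 2 pairs. With the replicate block the count of calls stayed at 0, while 1787 probes had an unadjusted p under 0.05 against 489 without it (smallest adjusted p 0.60). The block left each difference as it was and narrowed the 95% intervals. They ran from -0.37 to 0.14 for the brighter and from -0.23 to 0.29 for the dimmer Aff3 probe. For the brighter and dimmer Aff1 probe they were -0.27 to 0.19 and -0.31 to 0.13, and for Aff4 -0.31 to 0.13 (limma adjusted p 0.90 to 0.99). Among the core partners only the interval of Eaf2, the largest partner difference, left 0 with the block. It ran from 0.06 to 0.58 (limma unadjusted p 0.029, adjusted p 0.66).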
